A study of Mus musculus with 8 samples.

Results

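Brown adipose tissue (BAT) expresses a family of secreted and membrane-bound cytokines, their receptors and the adaptors that carry their signal into the cell. The genes described here are the ligands and receptors of the TNF (tumor necrosis factor) superfamily that carry the systematic symbols, together with *Tnf*, *Lta*, *Ltb* and the TRAF (TNF receptor-associated factor) adaptors. They were chosen by symbol from the GENCODE mouse annotation of GRCm38: every protein-coding gene named *Tnf*, *Lta* or *Ltb*, or with a name that starts with *Tnfsf*, *Tnfrsf* or is *Traf1* to *Traf7*. This gave 42 of the 44674 genes in the table, namely 15 ligands, 20 receptors and 7 TRAFs, and the non-coding gene *Tnfsf13os* was left out.

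Bulk mRNA of BAT was sequenced from 4 control mice and 4 Ox1RΔSERT mice. Ox1RΔSERT mice carried floxed alleles of the orexin receptor Ox1R on both chromosomes (Ox1R fl/fl) and 1 Sert-Cre transgene, whereas controls from the same breeding had the floxed alleles and no Cre (Ox1R fl/fl, Sert-Cre wt/wt). Cre was driven by the serotonin transporter (SERT) and served to delete Ox1R in serotonergic neurons, so BAT itself was not the target of the deletion. All mice were males that received a high-fat diet (HFD) from 4 to 18 weeks of age, and tissue was taken at the end of a hyperinsulinemic-euglycemic clamp, in which insulin is infused and glucose is adjusted to keep blood glucose steady. The comparison asks which transcripts of BAT differ between obese mice with and without Ox1R in these neurons.

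Ligands of the TNF superfamily are mostly trimeric membrane proteins, some of which are shed into the blood, and each binds a limited set of receptors. Receptors that hold a death domain recruit adaptors such as Tradd and Fadd, while others bind TRAF proteins directly, and both routes lead to NF-kB, to JNK or to cell death. In adipose tissue of obese animals, Tnf is known to come largely from macrophages and to dampen insulin signalling and thermogenic gene expression in adipocytes.

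Values of control mice are given throughout in the order 10684, 11253, 11560 and 11563, and values of Ox1RΔSERT mice in the order 11243, 11601, 11613 and 11708. Total counts, as sums of the deposited estimated counts with each sum rounded to a whole number, were 39522431, 35852708, 48106143 and 50020837 in control mice and 50063339, 42606857, 41562505 and 42512627 in the Ox1RΔSERT mice. Normalized values are CPM (counts scaled to a common library size) after TMM scaling, and a floor of 3 counts per library corresponded to 0.0592 to 0.0951 on this scale, which covers counting error only. *Hcrtr1*, the gene of Ox1R, was measured, on the normalized scale, at 0, 0.159, 0.0452 and 0.0631 in control mice and 0, 0.0592, 0.112 and 0.0823 in the Ox1RΔSERT mice. These stem from 0 to 5 counts per mouse, at which a deletion was not detectable, and BAT says nothing on whether the neurons had lost the gene.

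The Ox1RΔSERT mice 11601 and 11708 stood apart from the other 6 mice. On the first principal component of all tested genes, which held 52.2% of the variance, they lay at 61.6 and 80.5, against -24.7, 8.62, -47.5 and -41.0 in control mice and -17.1 and -20.5 in Ox1RΔSERT mice 11243 and 11613. The leukocyte gene *Ptprc* was measured, on the normalized scale, at 5.62, 7.67, 3.27 and 4.56 in control mice and 6.97, 26.9, 7.84 and 24 in the Ox1RΔSERT mice, and mitochondrially encoded genes took 40%, 46.8%, 42.7% and 42.1% of the counts in the former and 44.6%, 33.6%, 34.0% and 36.2% in the latter. The counts and medians of the members, and the log2 fold changes of members and pathway genes named below, are therefore also given without these mice.

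Of the 42 members, 26 passed the filter on low counts and were tested, and 16 did not. The TRAFs were all tested, whereas 9 ligands and 7 receptors were not. In the tested members, transcripts of ligands and receptors were mostly more abundant in Ox1RΔSERT mice 11601 and 11708 than in any control mouse, as were 4 of 7 TRAFs in mouse 11601 and 3 of 7 in mouse 11708, beside 31.9% and 32% of all genes. With edgeR's quasi-likelihood test across all genes, 0 of the 26 members had an adjusted p under 0.05, as did 0% of the 14489 genes tested, and the lowest value among them was 0.316. At an unadjusted p under 0.05, 8 of the 26 members (30.8%) were higher in Ox1RΔSERT mice against 10.2% of all genes tested, and 0 were lower against 4.96%. The 8 were the ligands *Tnfsf12*, *Tnfsf13* and *Tnfsf14* and the receptors *Tnfrsf10b*, *Tnfrsf11a*, *Tnfrsf11b*, *Tnfrsf13b* and *Tnfrsf1b*. DESeq2 gave an adjusted p to 30 members and called 2 of them higher, *Tnfsf8* and *Tnfrsf10b*, against 1.54% of 15119 genes, and 0 lower, against 0.212%. Of these 2, edgeR tested *Tnfrsf10b* only and did not call it, while *Tnfsf8* did not pass its filter on low counts.

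These counts depended on single mice. Without Ox1RΔSERT mouse 11601 or 11708, 2 and 3 members had an unadjusted p under 0.05 in edgeR, and without control mouse 10684, 11560 or 11563 it was 5, 3 and 2, while it was 12 without Ox1RΔSERT mouse 11243. Over all genes the number at an unadjusted p under 0.05, in either direction, moved as well, from 2201 with all mice to 1108 without mouse 11601, 1032 without mouse 11708, 1018 without mouse 11560, 1348 without mouse 11563 and 3331 without mouse 11243, but it was 2326 without mouse 10684. DESeq2, in fits added after the data had been seen, called 0 members without mouse 11601, 2 without control mouse 10684 (*Tnfsf14* and *Tnfsf8*, with *Tnfrsf10b* lost) and 1, *Tnfsf8*, without mouse 11708 or without control mouse 11253, 11560 or 11563, but 8 without Ox1RΔSERT mouse 11243 and 5 without Ox1RΔSERT mouse 11613. Its calls over all genes moved in the same way, from 265 with all mice to 17 without mouse 11601, 19 without mouse 11708, 17 without mouse 11560, 49 without mouse 11563, 1516 without mouse 11243 and 936 without mouse 11613, while they were 247 without mouse 11253 and 373 without mouse 10684. With mice 11601 and 11708 both left out, edgeR gave 1 member higher at an unadjusted p under 0.05, *Tnfrsf10b*, against 1.66% of 14856 genes, with 0 at an adjusted p under 0.05, and DESeq2 called 0 members and 8 of all genes.

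The direction of the members was read next to that of all genes. Of the 26 tested members, 19 had a log2 fold change above 0, against 50.4% of all genes tested. The median log2 fold change was 0.82 in the 6 tested ligands, 0.57 in the 13 receptors, -0.02 in the 7 TRAFs and 0.52 over all 26, beside 0.00 over all genes. Without mice 11601 and 11708, these medians were 0.32, -0.06, -0.05 and -0.01, with -0.01 over all genes, so that those of the receptors and of all members changed sign. Leaving out mouse 11601 alone gave 0.31 over all members and 0.51 for the ligands, and leaving out mouse 11708 alone gave 0.32 for the receptors. A stricter filter of at least 10 counts in every mouse left 4 ligands, 11 receptors and 7 TRAFs. Their medians with all mice were 0.60, 0.42 and -0.01, with 0.38 over these 22 members and 0.00 over all genes. The median of the TRAFs was close to 0 and changed sign between settings, with 0.39 on log2(TPM + 0.1) and 0.37 on log2(TPM + 1), where the median of all genes had itself moved by 0.32 and 0.23. Relative to all genes, the TRAFs lay at 0.07 and 0.14 and all members at 0.35 and 0.18 on these scales. The ligands lay at 0.66 and 0.18 and the receptors at 0.33 and 0.23, so their medians were smaller than in edgeR. In bulk tissue, fewer or more cells of a type and less or more RNA per cell cannot be told apart, and this holds for each value here.

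**Figure D1:**
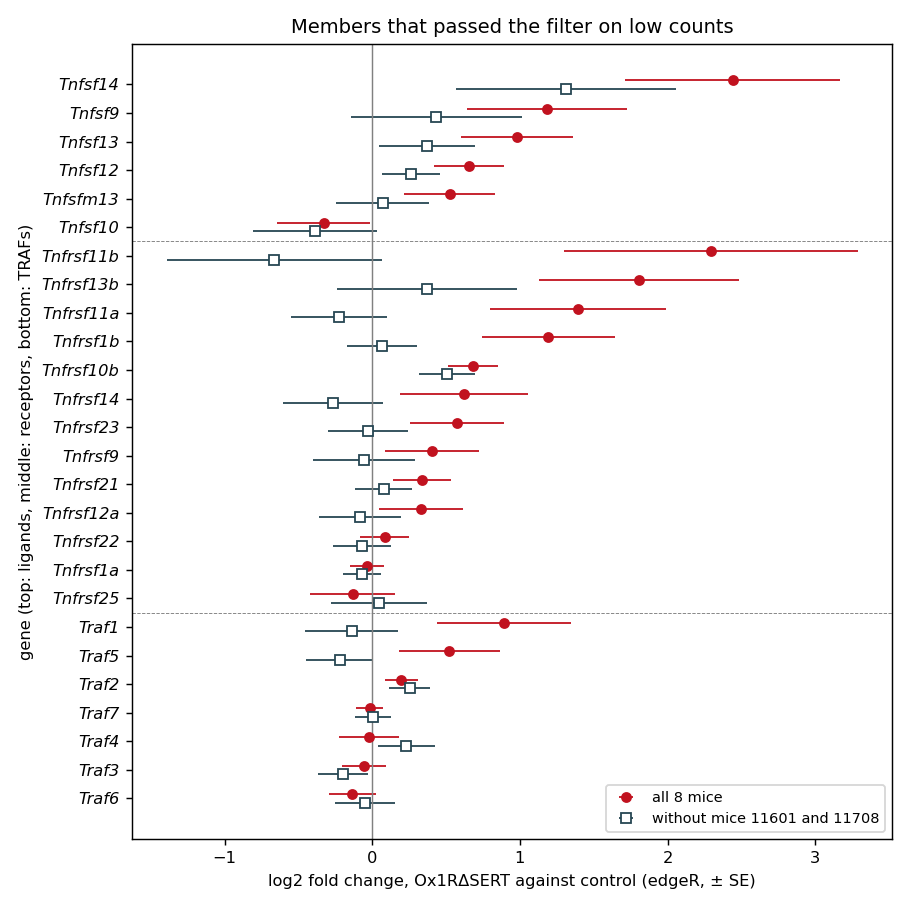
Log2 fold change of each of the 26 tested members, Ox1RΔSERT against control, from edgeR with its standard error, for all 8 mice (filled circles) and without mice 11601 and 11708 (open squares); ligands, receptors and TRAFs are separated by dashed lines. The median over all members was 0.52 with all mice and -0.01 without these 2, and the receptors *Tnfrsf11a* and *Tnfrsf11b* moved from 1.39 and 2.29 to -0.22 and -0.66.

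Mouse by mouse, the members divided as the principal component did. Mouse 11601 lay above all 4 control mice in 21 of the 26 tested members, against 31.9% of all genes, and mouse 11708 in 18, against 32%. Mouse 11243 did so in 4 (*Traf2*, *Traf4*, *Tnfsf13* and *Tnfrsf10b*), against 12%, and mouse 11613 in 6 (*Traf2*, *Traf7*, *Tnfsf14*, *Tnfsf9*, *Tnfrsf10b* and *Tnfrsf9*), against 20.8%. In 17 of the 26 members the 2 highest values were those of mice 11601 and 11708, against 20.1% of all genes. The median deviation of the members from the control mean on the log2 scale was -0.01, 0.05, 0.05 and -0.08 in control mice and 0.05, 0.82, 0.05 and 0.78 in the Ox1RΔSERT mice. Groups without overlap were found in 2 of 26 members with higher values in Ox1RΔSERT mice (*Traf2* and *Tnfrsf10b*), against 2.69% of all genes, and in 0 with lower values, against 2.81%. The untested *Tnfsf8* had no overlap either.

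**Figure D2:**
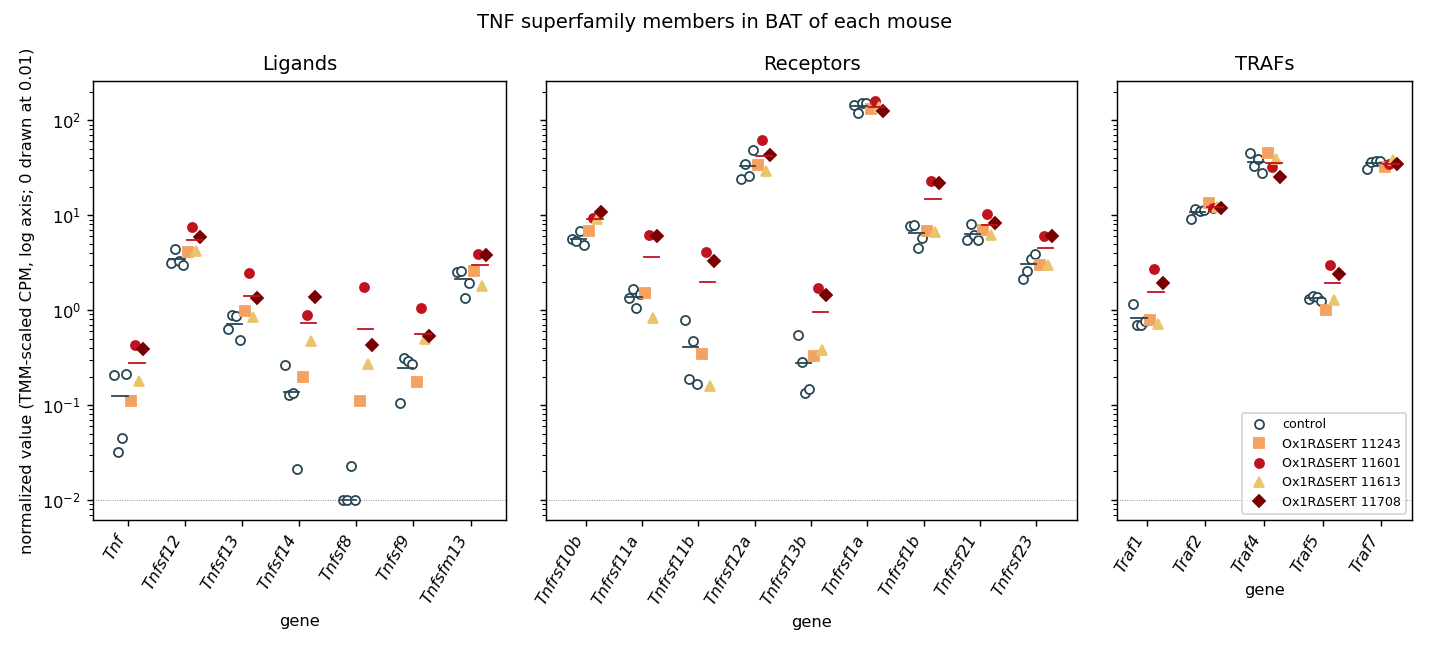
Normalized value (TMM-scaled CPM, log axis) of the 21 members described in full, with each control mouse as an open circle, each Ox1RΔSERT mouse by its own symbol and the group means as lines; values of 0 are drawn at 0.01. Mice 11601 and 11708 lie above the controls in most ligands and receptors, but the groups as a whole overlap in all members shown except *Tnfsf8*, *Tnfrsf10b* and *Traf2*.

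Among the ligands, *Tnf* itself was close to the limit of detection. *Tnf* (ENSMUSG00000024401, chromosome 17 of GRCm38, 35199381 to 35202007), the name-giving cytokine of the family, had 8, 1, 2 and 10 counts in control mice and 5, 22, 8 and 19 in the Ox1RΔSERT mice. Normalized values were 0.209, 0.0317, 0.0452 and 0.210 against 0.109, 0.434, 0.180 and 0.391. Mice 11601 and 11708 were the highest and mice 11243 and 11613 lay within the range of the controls. The means were 0.124 ± 0.0990 in control and 0.278 ± 0.158 in Ox1RΔSERT mice (SD, n = 4 each; exact permutation p = 0.171). The filter kept *Tnf* out of edgeR's test, and where a setting gave an adjusted p it lay between 0.340 and 1.

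*Tnfsf8* (ENSMUSG00000028362, chromosome 4, 63831308 to 63861347), the ligand of *Tnfrsf8* on activated lymphocytes, was nearly absent in the control mice, with 0, 0, 1 and 0 counts against 5, 88, 12 and 21. Normalized values were 0, 0, 0.0226 and 0 in control mice and 0.109, 1.74, 0.269 and 0.432 in the Ox1RΔSERT mice. All 4 Ox1RΔSERT mice lay above all control mice, with 88 of their 126 counts in mouse 11601. Summed over the mice, 126 counts stood against 1, a ratio of 107 after scaling with a 95% counting interval of 18.9 to 4275, which covers counting error only. By exact permutation p was 0.0286, the lowest that groups of 4 can reach. DESeq2 gave a log2 fold change of 6.37, and of 5.14 without mouse 11601 and 4.64 without mice 11601 and 11708, so the direction was kept. Its adjusted p was 0.00366, which in DESeq2 was 0.191 without mouse 11601 and 1 without mice 11601 and 11708, and over all settings it lay between 0.000196 and 1. edgeR did not test *Tnfsf8* in all 8 mice because of its low counts. The receptor *Tnfrsf8* had 0 to 6 counts per mouse.

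*Tnfsf12* (ENSMUSG00000097328, chromosome 11, 69686250 to 69695849), also known as TWEAK, was the most abundant ligand by TPM. Its normalized values were 3.16, 4.38, 3.32 and 3.01 in control mice and 4.08, 7.57, 4.18 and 5.94 in the Ox1RΔSERT mice. Mice 11601 and 11708 exceeded every control, whereas mice 11243 and 11613 lay below control mouse 11253. The means were 3.47 ± 0.620 and 5.44 ± 1.66 (SD, n = 4 each), with a log2 fold change of 0.65 (standard error, SE, 0.24) and an adjusted p of 0.316 in edgeR, and 0.0443 to 1 over all settings. Without mice 11601 and 11708 it was 0.26. *Tnfsf13* (ENSMUSG00000089669, chromosome 11, 69682846 to 69685784), known as APRIL and a survival factor of B cells and plasma cells, lies next to it. Its values were 0.628, 0.888, 0.858 and 0.483 against 0.983, 2.45, 0.853 and 1.34, so that 3 Ox1RΔSERT mice exceeded all controls and mouse 11613 did not. The log2 fold change was 0.98 (SE 0.38), with an adjusted p of 0.317 in edgeR and 0.0977 to 1 over all settings, and 0.37 without mice 11601 and 11708. *Tnfsfm13* (ENSMUSG00000018752, chromosome 11, 69682577 to 69696098) is the read-through transcript of both genes. It had 2.54, 2.60, 1.35 and 1.93 in control mice and 2.60, 3.91, 1.80 and 3.80 in the Ox1RΔSERT mice, with overlapping groups and a log2 fold change of 0.53 (SE 0.31; adjusted p 0.419 in edgeR), or 0.07 without mice 11601 and 11708. Its exons share 983 bases with *Tnfsf13* and 731 with *Tnfsf12* on the same strand, so reads can be assigned to either, and *Tnfsf13os* on the opposite strand shares 221 bases with *Tnfsf13* and 253 with *Tnfsfm13*. The counts of these 3 members are uncertain.

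*Tnfsf14* (ENSMUSG00000005824, chromosome 17, 57189492 to 57194177), known as LIGHT, binds *Tnfrsf14* and the lymphotoxin beta receptor *Ltbr*. It was measured, on the normalized scale, at 0.262, 0.127, 0.135 and 0.0210 in the control mice, from 1 to 10 counts, and 0.197, 0.888, 0.471 and 1.38 in the Ox1RΔSERT mice, from 9 to 67 counts. Mouse 11708 was the highest, 3 Ox1RΔSERT mice exceeded all controls and mouse 11243 lay below control mouse 10684. The log2 fold change was 2.44 (SE 0.73), with an unadjusted p of 0.00866 and an adjusted p of 0.316 in edgeR and 0.00562 to 1 over all settings. It ranged from 1.94 to 2.96 with 1 mouse left out and was 1.31 without mice 11601 and 11708. The exact permutation p was 0.0571.

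*Tnfsf9* (ENSMUSG00000035678, chromosome 17, 57105325 to 57107757), the ligand of the costimulatory receptor *Tnfrsf9*, had values of 0.105, 0.317, 0.294 and 0.273 against 0.175, 1.05, 0.494 and 0.535. Here mice 11601, 11613 and 11708 exceeded all controls, while mouse 11243 was the second lowest of all mice. Its log2 fold change was 1.18 (SE 0.54), with an adjusted p of 0.339 in edgeR, and 0.43 without mice 11601 and 11708; exons of *Tnfsf9* share 192 bases with *Gm11110* on the opposite strand. *Tnfsf10*, known as TRAIL and a trigger of apoptosis, was the only tested ligand with a negative log2 fold change, -0.33 (adjusted p 0.619 in edgeR; -0.39 without mice 11601 and 11708, -0.09 without control mouse 10684 and -0.53 without mouse 11243), with values between 2.35 and 5.26 in control and between 1.62 and 3.84 in Ox1RΔSERT mice.

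The other ligands were at the edge of detection. *Ltb* had 0 to 6 counts per mouse, *Tnfsf11* (RANKL, which drives osteoclast formation) 0 to 13 with the highest in mouse 11601, *Tnfsf13b* (the B cell survival factor BAFF) 2 to 9 and *Tnfsf18* 0 to 7. *Lta*, *Tnfsf15* and *Tnfsf4* had no more than 3 counts in any mouse, as had the receptors *Tnfrsf13c* and *Tnfrsf17*, and no fold is given for these 5 members. Of the untested ligands, DESeq2 with all mice gave an adjusted p to *Tnf* and *Tnfsf8* only, and it called *Tnfsf8*.

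Among the receptors, *Tnfrsf10b* was the member that differed most evenly between the groups. *Tnfrsf10b* (ENSMUSG00000022074, chromosome 14, 69767472 to 69784411) is the death receptor for *Tnfsf10*. Its normalized values were 5.62, 5.39, 6.75 and 4.90 in control mice and 6.88, 9.41, 9.16 and 10.9 in the Ox1RΔSERT mice. All 4 Ox1RΔSERT mice lay above all control mice, although mouse 11243 differed little from control mouse 11560. The means were 5.67 ± 0.785 in control and 9.08 ± 1.65 in Ox1RΔSERT mice (SD, n = 4 each; exact permutation p = 0.0286). The log2 fold change was 0.68 (SE 0.17), with an unadjusted p of 0.00312, the lowest of the members, and an adjusted p of 0.316 in edgeR. It stayed between 0.58 and 0.77 with each mouse left out and was 0.51 (SE 0.19) without mice 11601 and 11708. DESeq2 gave an adjusted p of 0.0335. The call was kept without mouse 11243 (0.000688) or 11613 (0.0418) and lost without mouse 11601 (0.320), mouse 11708 (0.275) or any single control mouse (0.0524, 0.0802, 0.0910 and 0.184), and over all settings the adjusted p lay between 0.000688 and 1.

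*Tnfrsf1a* and *Tnfrsf1b*, the receptors for *Tnf*, differed in how their values were spread over the mice. *Tnfrsf1a* (ENSMUSG00000030341, chromosome 6, 125349362 to 125362484) is found on most cell types and holds a death domain. Its normalized values were 146, 120, 151 and 152 in control mice and 132, 160, 139 and 124 in the Ox1RΔSERT mice. The groups overlapped, with means of 142 ± 15.3 and 139 ± 15.3 (SD, n = 4 each), and edgeR gave -0.04 (SE 0.12) for the log2 fold change and 0.891 for the adjusted p. Without mice 11601 and 11708 the log2 fold change was -0.07. On log2(TPM + 0.1) and log2(TPM + 1) the log2 fold change was 0.28 on each, where the median of all genes was 0.32 and 0.23. *Tnfrsf1b* (ENSMUSG00000028599, chromosome 4, 145213463 to 145246870) has no death domain, binds TRAF2 and is found mainly on leukocytes and endothelial cells. Its values were 7.64, 7.86, 4.49 and 5.76 against 6.77, 23.2, 6.65 and 22.1. Mice 11601 and 11708 stood far above the other 6 mice, and mice 11243 and 11613 lay among the controls. The means were 6.44 ± 1.60 and 14.7 ± 9.22 (SD, n = 4 each; exact permutation p = 0.200). The log2 fold change was 1.19 (SE 0.45), with an adjusted p of 0.316 in edgeR and 0.0105 to 1 over all settings, and it was 0.07 without mice 11601 and 11708.

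*Tnfrsf11a* (ENSMUSG00000026321, chromosome 1, 105780718 to 105847981), the receptor RANK of *Tnfsf11*, showed the same division. Its values were 1.33, 1.68, 1.06 and 1.47 in control mice and 1.53, 6.15, 0.831 and 6.05 in the Ox1RΔSERT mice. Mouse 11613 had the lowest value of all mice and mice 11601 and 11708 the highest. This gave a log2 fold change of 1.39 (SE 0.60; adjusted p 0.326 in edgeR, 0.0113 to 1 over all settings) with all mice and -0.22 without mice 11601 and 11708. *Tnfrsf11b* (ENSMUSG00000063727, chromosome 15, 54250619 to 54278484) encodes osteoprotegerin, a secreted decoy that binds *Tnfsf11* and *Tnfsf10*. It had values of 0.785, 0.190, 0.474 and 0.168 against 0.349, 4.12, 0.157 and 3.33. Again mouse 11613 was the lowest of all 8 mice and mice 11601 and 11708 exceeded every control. For this gene the log2 fold change was 2.29 (SE 1.00; adjusted p 0.328 in edgeR, 0.0221 to 1 over all settings) and -0.66 without mice 11601 and 11708. For both genes the exact permutation p was 0.343.

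*Tnfrsf13b* (ENSMUSG00000010142, chromosome 11, 61126755 to 61149372), known as TACI and a receptor of *Tnfsf13* and *Tnfsf13b* on B cells, had values of 0.549, 0.285, 0.135 and 0.147 in control mice and 0.328, 1.70, 0.382 and 1.46 in the Ox1RΔSERT mice. Mice 11243 and 11613 lay below control mouse 10684. In edgeR the log2 fold change was 1.81 (SE 0.68), with an adjusted p of 0.316 in edgeR and 0.0371 to 1 over all settings, and 0.37 without mice 11601 and 11708. *Tnfrsf12a* (ENSMUSG00000023905, chromosome 17, 23675445 to 23677468), the receptor of *Tnfsf12*, had 24.2, 34.8, 25.8 and 48.7 against 33.5, 62.4, 29.4 and 42.7. Only mouse 11601 exceeded all controls, and control mouse 11563 was the second highest of all mice. Its log2 fold change was 0.33 (SE 0.29; adjusted p 0.579 in edgeR) and -0.08 without mice 11601 and 11708.

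*Tnfrsf21* (ENSMUSG00000023915, chromosome 17, 43016555 to 43089189), a receptor with a death domain, had 5.44, 7.99, 6.21 and 5.51 in control mice and 6.92, 10.3, 6.26 and 8.23 in the Ox1RΔSERT mice. The groups overlapped through control mouse 11253, and the log2 fold change was 0.34 (SE 0.20; adjusted p 0.417 in edgeR), or 0.08 without mice 11601 and 11708. *Tnfrsf23* (ENSMUSG00000037613, chromosome 7, 143665809 to 143685872), a decoy receptor of *Tnfsf10* in the mouse, had 2.14, 2.60, 3.50 and 3.91 against 2.99, 6.06, 2.96 and 6.09. Its log2 fold change was 0.57 (SE 0.32; adjusted p 0.396 in edgeR), or -0.03 without mice 11601 and 11708. *Tnfrsf22*, *Tnfrsf23* and *Tnfrsf26* are neighbouring genes of similar sequence, so reads can be shared among them, and *E230032D23Rik* on the opposite strand shares 164 exon bases with *Tnfrsf23* and 107 with *Tnfrsf26*, which makes their counts uncertain. The remaining tested receptors had log2 fold changes of 0.62 (*Tnfrsf14*), 0.41 (*Tnfrsf9*), 0.08 (*Tnfrsf22*) and -0.13 (*Tnfrsf25*), with adjusted p-values between 0.491 and 0.842 in edgeR, and of -0.26, -0.06, -0.07 and 0.05 in the same order without mice 11601 and 11708.

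Of the 7 untested receptors, *Tnfrsf26* had 4 to 5 counts in control mice and 2, 24, 5 and 43 in the Ox1RΔSERT mice, with the highest values in mice 11601 and 11708 as in *Tnfrsf23*. *Tnfrsf4* (a costimulatory receptor of T cells) had 4 to 19 counts per mouse, *Tnfrsf19* 0 to 17, *Tnfrsf18* (which shares 414 exon bases with *Gm16008* on the opposite strand) 0 to 7 and *Tnfrsf8* 0 to 6. Of these 5 receptors, DESeq2 with all mice gave an adjusted p to *Tnfrsf26* and *Tnfrsf4* only, and called neither.

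The TRAFs were expressed in every mouse, and 0 of the 7 had an unadjusted p under 0.05 in edgeR, beside 10.2% of all genes higher and 4.96% lower, or an adjusted p under 0.05 in edgeR or DESeq2. With so few genes this does not set the TRAFs apart from all genes, and *Traf1* and *Traf5* had an unadjusted p under 0.05 without mouse 11243, and *Traf1* also without mouse 11613. *Traf2* (ENSMUSG00000026942, chromosome 2, 25517982 to 25546940) is the adaptor and ubiquitin ligase that binds *Tnfrsf1b* and the *Tnfrsf1a* complex. Its normalized values were 9.08, 11.5, 11.1 and 11.4 in control mice and 13.4, 12, 12.2 and 11.8 in the Ox1RΔSERT mice. The groups did not overlap, but the difference between the lowest Ox1RΔSERT mouse (11708) and the highest control mouse (11253) was small and control mouse 10684 was low. The means were 10.8 ± 1.14 and 12.4 ± 0.732 (SD, n = 4 each; exact permutation p = 0.0286), with a log2 fold change of 0.20 (SE 0.11) and an adjusted p of 0.399 in edgeR and 0.224 to 1 over all settings. In contrast to the receptors, mouse 11243 was the highest, and the log2 fold change was 0.25 without mice 11601 and 11708.

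*Traf1* (ENSMUSG00000026875, chromosome 2, 34941750 to 34961772), which lacks the RING domain of the other family members and is itself induced by NF-kB, had 1.15, 0.698, 0.700 and 0.778 in control mice and 0.786, 2.74, 0.718 and 1.93 in the Ox1RΔSERT mice. *Traf5* (ENSMUSG00000026637, chromosome 1, 191997205 to 192092559), an adaptor close to *Traf2* in function, had 1.31, 1.4, 1.38 and 1.26 against 1.00, 3, 1.28 and 2.39. In both genes mice 11601 and 11708 exceeded all controls and the other Ox1RΔSERT mice did not. The log2 fold changes were 0.89 (SE 0.45; adjusted p 0.366 in edgeR) and 0.52 (SE 0.34; adjusted p 0.465 in edgeR), and -0.14 and -0.22 without mice 11601 and 11708. Exons of *Traf5* share 205 bases with *Gm26879* on the opposite strand and 65 with *Mir3473c*.

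*Traf4* (ENSMUSG00000017386, chromosome 11, 78158499 to 78165589) and *Traf7* (ENSMUSG00000052752, chromosome 17, 24508562 to 24527938) were the most abundant TRAFs. *Traf4* had 44.7, 33.1, 39.1 and 27.8 in control mice and 45.6, 32.5, 39.1 and 25.1 in the Ox1RΔSERT mice, so each group spanned nearly the same range. *Traf7*, whose C-terminal WD repeats replace the domain shared by the other TRAFs, had 30.9, 36.3, 37.7 and 36.9 against 32.3, 34.9, 38.5 and 34.4. Log2 fold changes were -0.02 in both (SE 0.20 and 0.09, adjusted p 0.964 and 0.945 in edgeR), without mice 11601 and 11708 they were 0.23 and 0.00, and on log2(TPM + 0.1) they were 0.27 and 0.39, beside 0.32 for the median of all genes. Exons of *Traf7* share 267 bases with *Rab26* on the same strand and 110 with *Caskin1* on the opposite strand. *Traf3*, a brake on non-canonical NF-kB signalling, had values between 13.7 and 19.5 in the control and between 13.9 and 20.3 in the Ox1RΔSERT mice. *Traf6*, which also serves toll-like and interleukin receptors, had 16.2 to 24.4 and 16.1 to 22.0.

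Levels of different members can be compared only per transcript length, in the TPM values of the authors. By mean TPM of the control mice, *Tnfrsf1a* (59.0 ± 8.68), *Tnfrsf12a* (33.4 ± 11.8), *Traf4* (15.7 ± 3.49) and *Traf7* (14.8 ± 1.96; SD, n = 4 each) were the only members at 10 TPM or more. In Ox1RΔSERT mice they had 72.7 ± 17.2, 55.3 ± 27.7, 18.7 ± 2.31 and 19.6 ± 3.41 TPM (SD, n = 4 each). These TPM values serve to rank members and not to compare the groups, since the median of all genes was itself 0.32 higher in Ox1RΔSERT mice on log2(TPM + 0.1), and normalized means were 142 against 139 for *Tnfrsf1a*, 33.4 against 42 for *Tnfrsf12a*, 36.2 against 35.6 for *Traf4* and 35.4 against 35.0 for *Traf7*. *Tnfrsf1a* stood above *Tnfrsf12a* within each mouse. Across the control mice their ranges overlapped (46.2 to 65.3 against 24.9 to 50.4 TPM), and in mouse 11601 they were close (95.5 against 92.0). *Traf4* and *Traf7* did not differ beyond their spread. In control mice, 1 ligand, 8 receptors and 5 TRAFs reached 1 TPM, and 9 ligands and 7 receptors were under 0.1 TPM. The ligand that reached it was *Tnfsf12*, at 2.47 ± 0.244 TPM in control and 5.06 ± 2.25 TPM in Ox1RΔSERT mice (SD, n = 4 each).

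Receptor transcripts were thus dominated by a pair of genes. *Tnfrsf1a* took 63.7%, 52.4%, 63.1% and 52.0% of the summed TPM of the receptors in control mice and 55.6%, 44.4%, 58.8% and 45.0% in the Ox1RΔSERT mice. *Tnfrsf12a* took 25.6%, 36.6%, 26.3% and 40.1% against 34.2%, 42.8%, 29.7% and 37.7%. The share of *Tnfrsf1a* was lowest in mice 11601 and 11708. Summed over receptors, TPM was 97.3, 88.1, 99.2 and 126 in the control and 97.2, 215, 116 and 162 in the Ox1RΔSERT mice, and summed over ligands it was 5.51, 5.24, 4.60 and 4.64 against 5.77, 16.1, 6.69 and 12.7. After TMM scaling, which removes the shift of all genes on the TPM scale, the sums were 202, 188, 208 and 231 against 199, 293, 202 and 236 for the receptors and 12.6, 11.9, 9.76 and 8.47 against 12.3, 21.7, 10.3 and 17.3 for the ligands. *Traf4* and *Traf7* together took 79.3%, 76.0%, 77.7% and 73.8% of the TPM of the TRAFs in control mice and 79.4%, 71.1%, 77.0% and 71.3% in the Ox1RΔSERT mice.

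**Figure D3:**
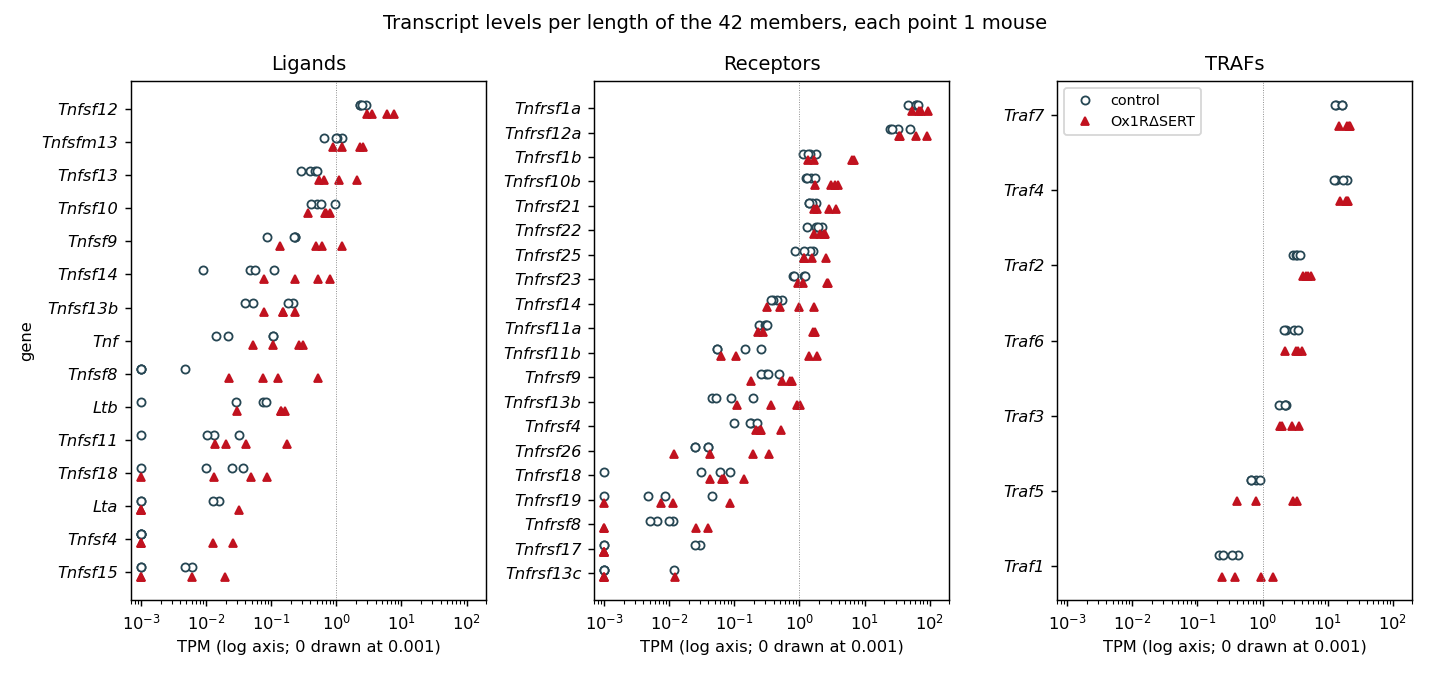
TPM (log axis) of the 42 members by role, with 1 open circle per control mouse and 1 triangle per Ox1RΔSERT mouse, genes ordered by their mean and values of 0 drawn at 0.001. *Tnfrsf1a* and *Tnfrsf12a* lie above all other receptors, and most ligands lie under the dotted line at 1 TPM.

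Set side by side as known ligand and receptor pairs, the receptor had the higher mean TPM in 17 of 23 pairs in control mice and in 17 of 23 in Ox1RΔSERT mice. This tally includes pairs of *Lta*, *Tnfsf4*, *Tnfsf15*, *Tnfrsf13c* and *Tnfrsf17*, which were at or under the floor in each mouse. Pairs with few counts on both sides, such as *Tnfsf18* with *Tnfrsf18* or *Tnfsf8* with *Tnfrsf8* in control mice, have an uncertain order. *Tnf* stood at 0.0619 ± 0.0508 TPM in control mice against 59.0 ± 8.68 for *Tnfrsf1a* and 1.43 ± 0.281 for *Tnfrsf1b*, and in Ox1RΔSERT mice at 0.182 ± 0.122 against 72.7 ± 17.2 and 4.10 ± 2.98 (SD, n = 4 each). *Tnfsf12* stood at 2.47 ± 0.244 TPM against 33.4 ± 11.8 for *Tnfrsf12a* in control mice (SD, n = 4 each). *Tnfsf14* had 0.0551 ± 0.0413 TPM in control and 0.407 ± 0.316 in Ox1RΔSERT mice, where its receptors *Tnfrsf14* and *Ltbr* had 0.872 ± 0.612 and 17.2 ± 4.19 (SD, n = 4 each). In control mice the ligand was the higher in the pairs of *Tnfsf13* with *Tnfrsf13b* and *Tnfrsf17*, of *Tnfsf13b* with *Tnfrsf13b*, *Tnfrsf13c* and *Tnfrsf17*, and of *Tnfsf10* with *Tnfrsf11b*. The means of *Tnfsf13b* (0.124 ± 0.0914 TPM) and *Tnfrsf13b* (0.0952 ± 0.0686; SD, n = 4 each) lay within their spread. Of the control mice, only 10684 and 11560 had the ligand of this pair above its receptor. In Ox1RΔSERT mice the ligand was the higher for *Tnfsf8* with *Tnfrsf8*, *Tnfsf9* with *Tnfrsf9*, *Tnfsf13* with *Tnfrsf13b* and *Tnfrsf17*, and *Tnfsf13b* with *Tnfrsf13c* and *Tnfrsf17*. Of these, *Tnfsf9* had 0.136, 1.21, 0.488 and 0.607 TPM against 0.181, 0.712, 0.543 and 0.768 for *Tnfrsf9*. It was the higher in mouse 11601 only, and the means lay within their spread (0.611 ± 0.448 and 0.551 ± 0.264; SD, n = 4 each). Among the pairs with the higher ligand, *Tnfsf13* was at 0.418 ± 0.0997 TPM in control mice against 0.0952 ± 0.0686 for *Tnfrsf13b*, while *Tnfrsf17* and *Tnfrsf13c* were at or under the floor in each mouse. *Tnfsf8* was the only ligand called by DESeq2, and its receptor *Tnfrsf8* was at 0.0161 ± 0.0193 TPM in Ox1RΔSERT mice (SD, n = 4).

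Promoters are shown for members with an unadjusted p under 0.05 whose upstream window was free of annotated exons, since mice 11601 and 11708 were high in each of them. Of the 42 members, 35 had a window in the RefSeq table for GRCm38.p6, and *Tnfrsf10b*, *Tnfrsf11b*, *Tnfrsf22*, *Tnfrsf26*, *Tnfsf12*, *Tnfsf4* and *Tnfsf9* had none. The 250 bases before the transcription start are printed 5′ to 3′ on the strand of the gene, with motif matches in capitals. Of *Tnfrsf1b*, *Tnfsf14* and *Tnfrsf13b*, the windows are chr4:145246871-145247120 (minus strand), chr17:57194182-57194431 (minus strand) and chr11:61126505-61126754 (plus strand) of GRCm38.p6.
Tnfrsf1b: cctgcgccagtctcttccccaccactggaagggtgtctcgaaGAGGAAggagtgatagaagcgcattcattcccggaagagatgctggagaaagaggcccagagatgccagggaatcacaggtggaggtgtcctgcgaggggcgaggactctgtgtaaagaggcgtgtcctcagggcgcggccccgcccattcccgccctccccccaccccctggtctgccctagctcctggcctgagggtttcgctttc
Tnfsf14: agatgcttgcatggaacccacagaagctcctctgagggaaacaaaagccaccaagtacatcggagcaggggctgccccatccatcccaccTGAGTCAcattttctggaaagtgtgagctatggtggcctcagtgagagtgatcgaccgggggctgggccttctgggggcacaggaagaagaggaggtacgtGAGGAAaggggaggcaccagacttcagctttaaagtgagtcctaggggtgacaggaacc
Tnfrsf13b: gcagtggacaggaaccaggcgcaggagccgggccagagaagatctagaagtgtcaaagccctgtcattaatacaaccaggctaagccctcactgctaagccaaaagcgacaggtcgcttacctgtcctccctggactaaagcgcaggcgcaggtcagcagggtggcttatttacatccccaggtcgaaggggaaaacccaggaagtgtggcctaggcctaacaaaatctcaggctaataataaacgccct
The motifs searched on both strands were that of NF-kB, the AP-1 motif TGANTCA and GAGGAA, a core bound by PU.1 and other ETS factors, and no pair of them overlapped in the windows shown. *Tnfrsf1b* holds GAGGAA from 208 bases before the start, *Tnfsf14* holds the AP-1 motif from 160 and GAGGAA from 59 bases before it, and *Tnfrsf13b* holds none of the 3. Among the 32851 promoters of this length, 3.9% hold the NF-kB motif, 6.75% the AP-1 motif and 23.3% GAGGAA, and among the 39 windows of the 35 members they are held by 4 (*Ltb*, *Tnfrsf8*, *Tnfrsf9* and *Traf3*), 5 (*Tnfrsf8*, *Tnfrsf9*, *Tnfsf13*, *Tnfsf13b* and *Tnfsf14*) and 14. A match describes the letters only, and binding was not measured.

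Genes around the members in the pathway were read from 7 lists. With all mice, their counts stand beside 10.2% of all genes tested that were higher at an unadjusted p under 0.05. Over all genes, the number at this p in either direction moved from 2201 to 3331 without mouse 11243 and 2819 without mouse 11613. It was 1108 without mouse 11601 and 1032 without mouse 11708. DESeq2 called 1516, 936, 17 and 19 of all genes in the same order, against 265 with all mice. Higher values without overlap were found in 2.69% of all genes tested. In each list edgeR called 0 genes at an adjusted p under 0.05 and 0 were lower at an unadjusted p under 0.05, and without mice 11601 and 11708 DESeq2 called 0. Of the superfamily ligands and receptors with other symbols, 7 of 12 were tested and 0 had an unadjusted p under 0.05 (2 without mouse 11243 or 11613, 1 without control mouse 10684 or 11253), with 0 called by DESeq2 (1 without mouse 11613) and a median log2 fold change of 0.19, which was 0.01 without mice 11601 and 11708. The lowest p belonged to *Relt*, at 0.706, 0.951, 0.384 and 0.462 against 0.721, 1.62, 0.629 and 2.10, and *Eda2r*, the receptor of an ectodysplasin isoform, at 0.811, 1.20, 1.06 and 1.22 against 1.18, 4.04, 0.763 and 2.98. In both, mice 11601 and 11708 were the highest. *Cd40lg*, *Cd70* and *Edar* were at or under the floor in each mouse.

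Of the 7 death-domain adaptors and cell death genes, 2 were higher at an unadjusted p under 0.05, and 1 without mouse 11601 or 11708 or without control mouse 11560 or 11563, but 3 without mouse 11243 or 11613. With mice 11601 and 11708 both left out, the count was 0. *Ripk3*, the kinase of necroptosis, had 1.46, 1.97, 1.67 and 2.23 in control mice and 2.16, 7.69, 2.83 and 6.68 in the Ox1RΔSERT mice, a log2 fold change of 1.4 (SE 0.41) and of 0.45 without mice 11601 and 11708. DESeq2 called *Ripk3* alone (adjusted p 0.0423, 0.000676 to 1 over all settings), and 0 genes of the list without any 1 mouse except 11243 or 11613, where it called 2. *Casp8*, an initiator caspase of apoptosis, had 8.97, 9.29, 6.93 and 8.20 against 8.54, 18.6, 8.78 and 18.7, a log2 fold change of 0.71 (SE 0.29), and 0.06 without mice 11601 and 11708. The median of the list was 0.34, and 0.06 without mice 11601 and 11708.

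Ubiquitin ligases and deubiquitinases were near the share of all genes, with 1 of 9 higher at an unadjusted p under 0.05 (2 without mouse 11601 or control mouse 10684), 0 called by DESeq2 (1 without mouse 11243 or 11613) and a median log2 fold change of 0.00. This gene was *Birc3*, an NF-kB-induced ligase of the TNF receptor complex, at 7.58, 7.26, 5.94 and 6.39 against 8.82, 13.2, 7.52 and 13.3, with a log2 fold change of 0.66 (SE 0.21), and of 0.27 without mice 11601 and 11708. Only mouse 11613 lay within the control range. Next came *Rnf31*, with a log2 fold change of 0.29 (SE 0.15), and of 0.30 without mice 11601 and 11708. Of the 12 kinases that lead to NF-kB and JNK, 2 were higher, *Map3k14* and *Ikbkb*, with log2 fold changes of 0.58 and 0.32 (SE 0.19 and 0.13), or 0.39 and 0.12 without mice 11601 and 11708, and the count was 1 without mouse 11601 or 11708 or control mouse 11253 or 11560. With mice 11601 and 11708 both left out, 0 kinases had an unadjusted p under 0.05. DESeq2 called 0 of the kinases, and 1 without mouse 11243. The median of the kinases was -0.05.

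Subunits and inhibitors of NF-kB had 5 of 10 genes higher at an unadjusted p under 0.05 and a median log2 fold change of 0.41, which was 0.20 without mice 11601 and 11708. The 5 were *Nfkb1*, *Nfkb2*, *Relb*, *Rel* and *Nfkbie*, and the count was 2 without mouse 11601 or 11708 and 3 without mouse 11613 or control mouse 11253 or 11560. With mice 11601 and 11708 both left out, 1 gene of the list had an unadjusted p under 0.05. *Nfkb2*, the precursor of the non-canonical subunit, had 9, 7.13, 7.77 and 8.85 in control mice and 10.4, 16.1, 10.6 and 14.6 in the Ox1RΔSERT mice. The groups did not overlap, and the log2 fold change was 0.66 (SE 0.17) and 0.36 without mice 11601 and 11708. DESeq2 called *Nfkb2* (adjusted p 0.0406, 0.00441 to 1 over all settings); it called 2 genes of the list without control mouse 10684 or mouse 11613, 3 without mouse 11243 and 0 without any of the other 5 mice. *Nfkbie*, an inhibitor, had 0.680, 0.698, 0.790 and 0.946 against 1.33, 2.82, 0.763 and 2.43, a log2 fold change of 1.23 (SE 0.40), and 0.43 without mice 11601 and 11708.

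Known target genes of Tnf were higher in 4 of 12 tested genes at an unadjusted p under 0.05, with a median of 0.82 and of 0.18 without mice 11601 and 11708. The 4 were *Icam1*, *Cxcl1*, *Cxcl2* and *Il1b*, and the count was 7 without mouse 11613 or control mouse 10684, 6 without mouse 11243, 3 without mouse 11708 and 1 without mice 11601 and 11708. *Sod2*, the most abundant gene of the list, went the other way. It had 685.7, 570.1, 634.9 and 616.5 in control mice and 617.6, 454.1, 538 and 410.8 in the Ox1RΔSERT mice. Its log2 fold change was -0.31 (SE 0.14; adjusted p 0.339 in edgeR), and -0.11 without mice 11601 and 11708. *Il1b* had 0.915, 0.507, 0.835 and 0.420 in control mice and 0.895, 4.52, 2.63 and 10.5 in the Ox1RΔSERT mice, a log2 fold change of 2.79 (SE 0.69), and 1.39 without mice 11601 and 11708. Mouse 11243 lay among the controls and the other 3 above them. *Cxcl1*, a neutrophil chemokine, had 1.78, 0.412, 1.33 and 1.45 against 2.75, 11.9, 1.82 and 13.9, without overlap, and a log2 fold change of 2.60 (SE 0.71), and 0.87 without mice 11601 and 11708. DESeq2 called *Il1b* (adjusted p 0.00366, 1.07e-06 to 1 over all settings), *Cxcl1* (0.0109, 0.000272 to 1), *Cxcl2* (0.0452, 0.00589 to 1) and *Ptgs2* (0.0322, 0.00121 to 1), the last of which edgeR did not test. It called 2 genes of the list without control mouse 10684 or 11253, 1 without control mouse 11560 or mouse 11601, 0 without mouse 11708, 6 without mouse 11243 and 5 without mouse 11613. The groups of *Icam1* did not overlap either. *Cxcl2*, *Ptgs2*, *Icam1* and *Sod2* are named because their values had been seen.

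Of the 6 genes that release ligands and receptors from the cell surface, 2 were higher at an unadjusted p under 0.05, *Rhbdf2* and *Rhbdf1*, the iRhom partners of the sheddase Adam17. With mice 11601 and 11708 both left out, 1 gene of this list had an unadjusted p under 0.05. *Rhbdf2* had 7.58, 7.74, 7.68 and 8.51 in control mice and 9.74, 10.3, 11.5 and 13.7 in the Ox1RΔSERT mice, and *Rhbdf1* 13.5, 11.9, 9.24 and 12.5 against 14.6, 24, 15 and 19.1. In neither did the groups overlap, beside 2.69% of all genes tested that were higher without overlap. Their log2 fold changes were 0.52 (SE 0.13) and 0.62 (SE 0.19), and 0.44 and 0.33 without mice 11601 and 11708. DESeq2 called *Rhbdf2* (adjusted p 0.0406, 0.00716 to 1 over all settings), and called 0 genes of the list without mouse 11601, mouse 11708 or any 1 control mouse, 1 without mouse 11613 and 2 without mouse 11243. The median of the list was 0.15, and -0.02 without mice 11601 and 11708. *Adam17* itself had means of 41.7 ± 7.48 in control and 39.9 ± 3.30 in Ox1RΔSERT mice (SD, n = 4 each).

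Markers of cell types in BAT were read beside the members, as summed normalized values of 10 lists. Their counts stand beside 10.2% of all genes higher and 4.96% lower at an unadjusted p under 0.05 in edgeR. DESeq2 called 1.54% of all genes higher and 0.212% lower. These shares are those with all mice, and with a mouse left out the numbers over all genes moved as given for the pathway lists. No marker is itself a member. The gene named as leading or most abundant had the highest mean normalized value over all mice, a scale that does not allow for transcript length. Macrophage markers summed to 186, 270, 122 and 145 in control mice and 185, 881, 206 and 677 in the Ox1RΔSERT mice. Their 2 highest sums were those of mice 11601 and 11708. The same mice had the 2 highest values of *Tnfrsf1b*, *Tnfrsf11a* and *Tnfrsf13b*, and of 20.1% of all genes tested. The most abundant macrophage marker, *Lyz2*, had 83.3, 134, 56.1 and 69.0 against 89.2, 506, 84.0 and 348. Of the 7 macrophage markers, 6 were higher at an unadjusted p under 0.05 in edgeR (2 without mouse 11601 or control mouse 11560, 3 without mouse 11708 or control mouse 10684, 4 without control mouse 11563), 0 were called by edgeR and 2 (*Itgam* and *Mrc1*) by DESeq2. DESeq2 called 0 of them without mouse 11601, mouse 11708 or control mouse 11560 or 11563, 1 without control mouse 10684, 3 without mouse 11613 and 6 without mouse 11243. *Cd163* was the exception, with a log2 fold change of -0.37. Fibroblast and adipocyte precursor markers summed to 176, 379, 223 and 232 against 275, 1670, 379 and 852, so the 2 highest sums were again those of mice 11601 and 11708. Over all mice *Col1a1* was the highest, but *Dcn* exceeded it in each control mouse and in mouse 11243. Of these markers, 5 of 5 were higher at an unadjusted p under 0.05 in edgeR (2 without mouse 11601 or control mouse 10684, 11560 or 11563), and *Pdgfra* was called by DESeq2 (0 without mouse 11601 or 11708 or control mouse 10684, 11560 or 11563, 2 without control mouse 11253, 5 without mouse 11243 and 4 without mouse 11613). Without mice 11601 and 11708, edgeR gave 0 markers of both lists, and 0 in each of the other marker lists, an unadjusted p under 0.05.

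Lymphocyte markers were low. Those of T cells summed to 0.602, 0.951, 0.655 and 0.420 in control mice and 0.873, 1.60, 0.943 and 1.27 in the Ox1RΔSERT mice, with *Cd4* the most abundant, those of B cells to 0.445, 0.349, 0.158 and 0.946 against 0.437, 0.473, 0.382 and 0.679, with *Ms4a1* the most abundant, and those of NK cells to 0.157, 0.285, 0.135 and 0.420 against 0.393, 1.20, 0.247 and 0.473, with *Klrk1* the most abundant. Only 1 gene of each of these 3 lists passed the filter on low counts, and 0 had an unadjusted p under 0.05 in edgeR (1 NK gene without control mouse 11563) or were called by DESeq2. Dendritic cell markers summed to 9.10, 13.5, 10.7 and 12.3 against 14.6, 21, 13.2 and 20.6, with *Zbtb46* the most abundant, 2 of 4 tested genes higher at an unadjusted p under 0.05 (1 without mouse 11601 or 11708 or control mouse 10684, 11560 or 11563) and *Itgax* and *Ccr7* called by DESeq2 (1 without control mouse 10684, 0 without mouse 11601 or 11708 or control mouse 11560 or 11563). In contrast, *Xcr1* had a log2 fold change of -0.18 and *Zbtb46* of 0.10. Without mice 11601 and 11708 they were -0.47 and 0.22. Neutrophil markers summed to 24.1, 9.48, 12.2 and 6.07 against 13.0, 23.1, 26.3 and 48.5, with *S100a9* the most abundant, 2 of 4 tested genes higher (4 without control mouse 10684, 0 without control mouse 11253 or 11563 or mouse 11708, 1 without control mouse 11560 or mouse 11613) and 0 called by DESeq2 (1 without control mouse 10684, 2 without mouse 11243). *Ly6g* had no more than 0.105 in any mouse.

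Endothelial markers, led by *Pecam1*, summed to 272, 371, 303 and 319 in control mice and 348, 253, 312 and 337 in the Ox1RΔSERT mice, with 0 of 5 at an unadjusted p under 0.05. In control mice *Pecam1* (94.4 ± 11) and *Cdh5* (89.0 ± 13.0; SD, n = 4 each) did not differ beyond their spread. Brown adipocyte markers, led by *Fabp4*, summed to 12834, 13494, 13330 and 12837 against 12146, 9094, 11482 and 8462, lowest in mice 11601 and 11708, with *Ucp1* alone lower at an unadjusted p under 0.05 (log2 fold change -0.54, and -0.34 without mice 11601 and 11708) and 0 called by DESeq2 (1 without mouse 11243). Skeletal muscle markers, led by *Myh4*, summed to 6.88, 1378, 4.09 and 2.31 against 36.8, 157, 8.37 and 1993, so that muscle RNA was highest in mouse 11708 and control mouse 11253, while 0 of 6 had an unadjusted p under 0.05 (6 without control mouse 11253, where DESeq2 called 5). The part of these cell types in the values of the ligands and receptors was not tested.

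**Figure D4:**
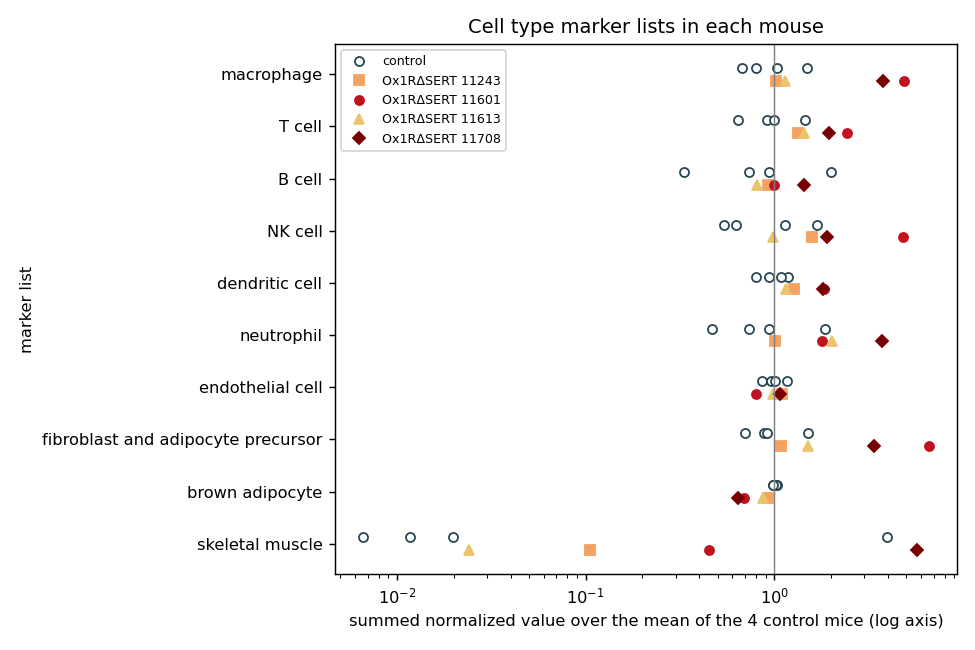
Summed normalized value of each of the 10 marker lists in each mouse, divided by the mean of the 4 control mice (log axis), with controls as open circles and each Ox1RΔSERT mouse by its own symbol. Macrophage markers sum to 881 and 677 in mice 11601 and 11708 against 122 to 270 in the control mice, and brown adipocyte markers to 9094 and 8462 against 12834 to 13494.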

How the data were processed

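BAT mRNA of 8 male mice was sequenced from stranded poly-A libraries. The authors quantified it with Salmon 0.14.1 against GRCm38.p6 and deposited estimated counts and TPM per gene, where the expected counts were not normalized and TPM is scaled per library and transcript length. Their notes also name STAR and DESeq2 1.26.0, and the strand setting and annotation release are not stated, so genes with exons on opposite strands are treated as uncertain. Mice were grouped by the labels.

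Here the counts were rounded to whole numbers and tested in R 4.3.3 with edgeR 4.0.16 (filterByExpr, TMM, quasi-likelihood test, Benjamini-Hochberg adjustment over the 14489 genes tested, threshold 0.05). The common dispersion was 0.0988. Standard errors are the log2 fold change over the square root of F. Single members were also tested by exact permutation over the 70 assignments of 4 mice against 4. The code was tested on simulated data. Symbols were found for 44118 of 44674 gene IDs, and 24567 genes had counts.

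Members, 7 pathway lists and 10 marker lists were chosen with earlier results of these data known. Values in each mouse are given for *Tnf*, *Tnfrsf1a* and *Tnfrsf1b*, the 2 most abundant members of each role by TPM, the 5 ligands, 7 receptors and 3 TRAFs with the lowest edgeR p, members called by DESeq2 and tested members whose groups do not overlap, 21 in all. Of the pathway lists the 2 genes with the lowest p are named, and of the marker lists the most abundant gene by mean normalized value over all mice. Alternatives were DESeq2 1.42.0, limma 3.58.1 (voom, or trend on log2(TPM + 1) and log2(TPM + 0.1)), RLE and upper-quartile scaling, mitochondrially encoded genes removed, no filter or 10 counts in every mouse, adjusted p under 0.1, each mouse left out, and mice 11601 and 11708 left out. DESeq2 with mice left out, medians by role under each alternative and lists with mice left out were chosen after seeing the data.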

Additional observations from a re-analysis of the deposited data

Results flagged for a closer look

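By the gap to the nearest of the other 3 mice of its group, relative to the range, a mouse stood out in 2 of 42 groups (the control and the Ox1RΔSERT mice of 21 members), each time a control mouse. Chance flags about 1 in 20 groups, so 2 are no more than chance gives. *Traf2* was 9.08 in control mouse 10684 against 11.1 to 11.5 in the other control mice, and without this mouse the log2 fold change of *Traf2* was 0.12. *Tnfsf8* was 0.0226 in control mouse 11560, which is 1 count, against 0 in the other control mice. Any single count against 0 in the rest meets this measure, and the value lies under the floor of 3 counts (0.0677 in this mouse), so it shows no difference between the control mice. The cause of the low *Traf2* value was not tested.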

How the results depend on the processing

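Each mouse is 1 animal of 4 per group, so the smallest exact permutation p is 0.0286, and members under the floor of 3 counts cannot be compared. Of 356 alternative values for named members, 326 kept direction and side of the threshold, 1 passed it only there (*Tnfrsf10b*, 0.67 in DESeq2), 9 no longer passed it and 20 reversed; the cause was not tested. As no member passed the threshold in edgeR with all mice, its side could hardly change, and a value that shrank counts as kept, such as *Tnfrsf1b* from 1.19 to 0.07 without mice 11601 and 11708. The number of tested members with an adjusted p under 0.05 was 0 in edgeR under each setting and 1 in DESeq2. The 8 members at an unadjusted p under 0.05 became 5 with at least 10 counts in every mouse (where 22 members were left), 5 in limma voom, 1 without mice 11601 and 11708 and 2 to 12 with 1 mouse left out. Members called by DESeq2 were 0 to 8 with 1 mouse left out and 0 without mice 11601 and 11708. Without mice 11601 and 11708 the median was -0.0122 over the members and -0.0558 over the receptors, and *Tnfrsf12a* was -0.0813, *Tnfrsf11a* -0.22, *Tnfrsf11b* -0.66, *Tnfrsf23* -0.0282, *Traf1* -0.14, *Traf5* -0.22, *Traf4* 0.23 and *Traf7* 0.00373. On log2(TPM + 0.1) and log2(TPM + 1) the median of the TRAFs was 0.39 and 0.37, *Tnfrsf1a* was 0.28 and 0.28, *Traf7* 0.39 and 0.37 and *Traf4* 0.27 and 0.25, where all genes moved by 0.32 and 0.23. With 1 mouse left out, the median of the TRAFs ranged from -0.0232 to 0.11, *Tnfrsf1a* from -0.13 to 0.0121, *Traf4* from -0.19 to 0.11 and *Traf7* from -0.0803 to 0.0109.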
